A study of Homo sapiens with 22 samples.

Results

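The 7 genes described here encode the class II and class IV lysine deacetylases (KDACs, with gene symbols beginning HDAC). HDAC4, HDAC5, HDAC7 and HDAC9 form class IIa, HDAC6 and HDAC10 form class IIb, and HDAC11 makes up class IV. They were chosen by gene name from the 60675 genes of the count table, with no measured value in the rule, and all 7 passed the filter on low counts in each of the 8 comparisons. RNA-seq after depletion of ribosomal RNA was performed on HT1080, a human fibrosarcoma cell line that all 6 groups share. Untreated wild-type cells (WT, n = 4) were compared with 3 lines in which a histidine of a catalytic domain had been replaced by alanine in the endogenous gene: KDAC6H216A (first catalytic domain of KDAC6), KDAC6H611A (second catalytic domain of KDAC6) and KDAC8H143A (KDAC8), with n = 4 for each line. WT cells were also treated for 2 days with 1 µM Tubastatin A, an inhibitor of KDAC6, or with 5 µM PCI-34051, an inhibitor of KDAC8 (n = 3 each), and the WT libraries that serve as their control are labelled as having no treatment. The KDAC6H216A line pooled 3 independent clones, and the other edited lines were grown out of single colonies. In those lines an effect of the edit cannot be told apart from a difference of the colony. Each edit changes a residue and leaves the gene in place, so the RNA level of the targeted gene does not check the labels.

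Lysine deacetylases remove acetyl groups from lysine residues of histones and of many other proteins. Class IIa proteins have little activity of their own on acetyl-lysine and act largely as scaffolds: in the nucleus they bind MEF2 transcription factors and bring in corepressor complexes with KDAC3, and once phosphorylated by kinases of the CaMK, PKD, SIK and AMPK families they are bound by 14-3-3 proteins and leave the nucleus. KDAC6 is mostly cytoplasmic, carries a pair of catalytic domains and a ubiquitin-binding zinc finger, and deacetylates α-tubulin and cortactin. KDAC10 acts on acetylated polyamines, and KDAC11 removes long fatty acyl groups from lysine.

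The 2 edited codons of HDAC6 are shown because they define 2 of the 6 groups. Both sequences were read from the GRCh38 genome on the plus strand, 5′ to 3′, with the histidine codon in capitals. The first lies in exon 9 at chrX:48808034-48808066 and the second in exon 20 at chrX:48817353-48817385. Each is wholly coding.
HDAC6, first catalytic domain: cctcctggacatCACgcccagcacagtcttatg
HDAC6, second catalytic domain: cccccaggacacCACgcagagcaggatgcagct

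Total counts ran from 5248960 to 12752476 in WT cells and the KDAC6 lines, from 11010779 to 17170493 in KDAC8H143A and from 24315844 to 29862658 in the inhibitor-treated cells. Mitochondrial ribosomal RNA took 20.8% to 23.9% of the counts in WT cells, but at most 0.0259% in KDAC8H143A and in both inhibitor groups. All libraries of these groups also had higher total counts than any WT library, which held at most 8998521. Neither library difference can be told apart from the line or treatment. Within the KDAC6 lines, KDAC6H216A replicate 1 held 0.195% and KDAC6H611A replicate 4 held 0.173%, while the other 6 libraries held 13.1% to 38.0%. Of 8 mesenchymal markers, 6 had a median of at least 1 CPM (count per 1000000 counts of a library), and the list summed to between 3531 and 9320 CPM. VIM, FN1 and CD44 were present in all 22 libraries, while S100A4 and THY1 had medians of 0.480 and 0.576 CPM. The 4 haematopoietic markers summed to at most 0.838 CPM, the 4 endothelial markers to at most 4.40 CPM and the 5 epithelial markers to at most 9.70 CPM, nearly all of it CLDN4, with KRT14 at 0 in every library.

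In WT cells the 7 genes differed in level. Per kilobase of annotated exon length, HDAC7 stood at 6.82 ± 0.234 CPM per kb (SD, n = 4), followed by HDAC10 at 4.74 ± 0.224, HDAC5 at 3.78 ± 0.155 and HDAC9 at 2.99 ± 0.101 CPM per kb. Lower levels were found for HDAC4 (1.11 ± 0.115 CPM per kb), HDAC6 (0.981 ± 0.226) and HDAC11 (0.671 ± 0.214). In this order HDAC4 and HDAC6 did not differ beyond their spread, nor did HDAC6 and HDAC11, as their ranges of 1 SD overlapped, whereas the other neighbours lay further apart. When the longest annotated transcript was taken as the length, HDAC6 (2.45 ± 0.564 CPM per kb) came before HDAC4 (1.76 ± 0.181), and the order was otherwise kept. HDAC11 rested on 9 to 35 counts per WT library and HDAC6 on 47 to 136, so their values were the least precise of the group, whereas HDAC7 rested on 318 counts or more.

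**Figure D1:**
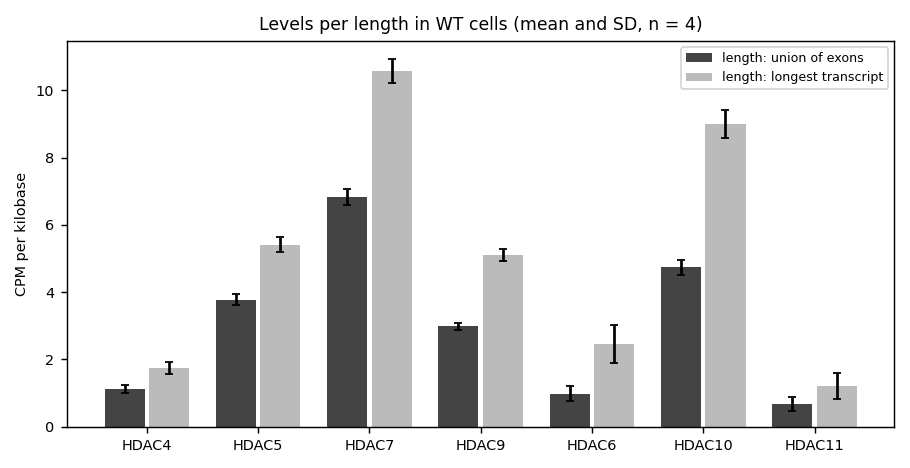
Mean level of each gene in WT cells in CPM per kilobase (bars from 0, whiskers 1 SD, n = 4), with the union of annotated exons (dark) or the longest annotated transcript (light) as the length. HDAC7 and HDAC10 stand highest and HDAC11 lowest with either length.

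**Figure D2:**
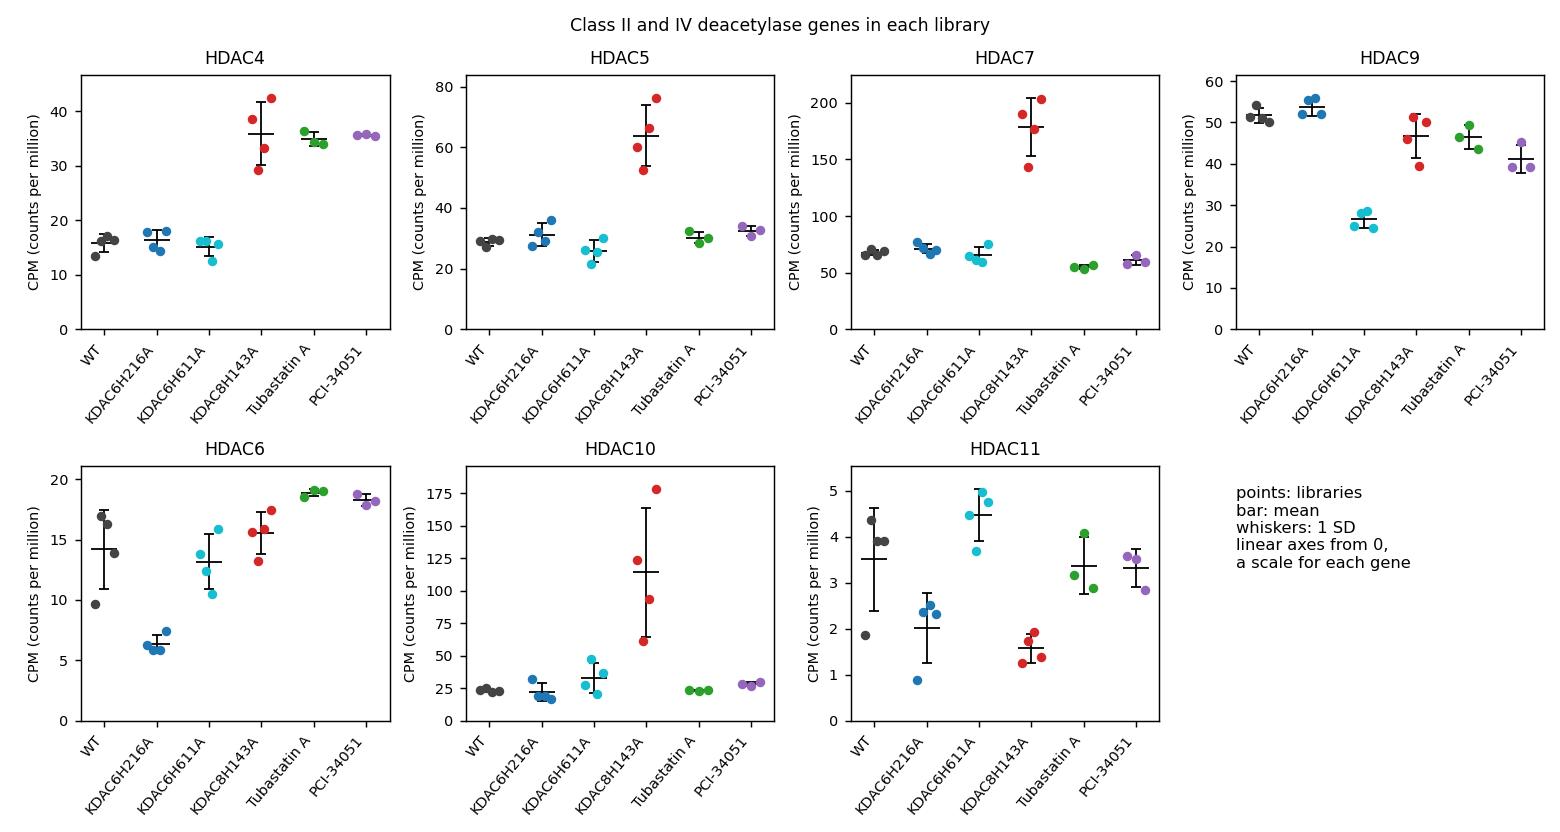
CPM of the 7 genes in all 22 libraries (points), with the mean (bar) and 1 SD (whiskers) of each group, on linear axes that start at 0 and differ between genes. HDAC4 is about as high in both inhibitor groups as in KDAC8H143A, HDAC9 stands apart in KDAC6H611A, and HDAC6 stands apart in KDAC6H216A.

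Each group was then compared with WT cells, with a gene called changed at an adjusted p below 0.01 in the quasi-likelihood test of edgeR after Benjamini-Hochberg adjustment across every gene tested. The 5 comparisons share the 4 WT libraries. In KDAC6H216A, 1 of the 7 genes was called, HDAC6, which was lower. Lower calls made up 0.621% of all genes tested there and higher calls 0.214%. In KDAC6H611A, 1 of 7 was called, HDAC9, also lower, against 6.24% of all genes called lower and 6.08% called higher (919 and 895 genes, or 364 and 549 when libraries were scaled to their total count only). In KDAC8H143A, HDAC4, HDAC5, HDAC7 and HDAC10 were called higher and HDAC11 lower, so that 5 of 7 were called where 31.6% of all genes were called higher and 26.9% lower. With Tubastatin A, HDAC4 was higher and HDAC7 and HDAC9 were lower (3 of 7), against 29.3% of all genes called higher and 28.6% lower. With PCI-34051 the same 3 genes were called in the same directions, where 25.5% of all genes were called higher and 25.6% lower. For KDAC8H143A and the inhibitors most genes tested were called, so the counts do not set the 7 genes apart. Fewer cells with a given RNA cannot be told apart from less of it per cell in any bulk sample.

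**Figure D3:**
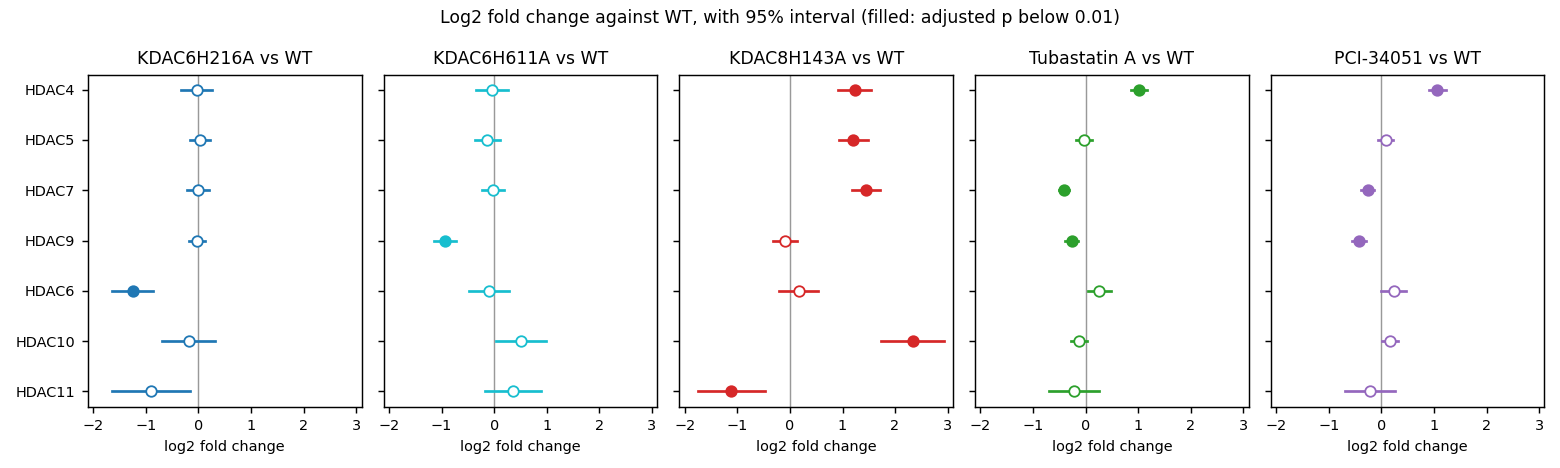
Log2 fold change against WT cells (horizontal axes) of the 7 genes in the 5 comparisons, with 95% intervals as lines and filled points where the adjusted p was below 0.01. The filled points are HDAC6 in KDAC6H216A, HDAC9 in KDAC6H611A, 5 genes in KDAC8H143A, and HDAC4, HDAC7 and HDAC9 with each inhibitor.

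The class IIa gene HDAC4 (chromosome 2, 239048168 to 239401654, minus strand) rose in KDAC8H143A and with both inhibitors and showed no detectable difference in either KDAC6 line. Its level in the WT libraries was 13.4, 16.2, 17.2 and 16.3 CPM. KDAC8H143A held 38.6, 29.3, 33.2 and 42.5 CPM, Tubastatin A 36.3, 34.3 and 33.9 CPM, and PCI-34051 35.7, 35.7 and 35.5 CPM. All 10 of these libraries lay above all 4 WT libraries, and the ranges of the 3 groups overlapped in the order KDAC8H143A, PCI-34051, Tubastatin A. Every library of these 3 groups held little mitochondrial ribosomal RNA, a difference from WT cells that cannot be told apart from the line or treatment. The log2 fold change against WT cells was 1.23 in KDAC8H143A (standard error 0.14, edgeR adjusted p = 1.80e-05), a 2.34-fold increase. With Tubastatin A the log2 fold change was 1.01 (standard error 0.08, edgeR adjusted p = 6.89e-10), and with PCI-34051 it was 1.06 (standard error 0.07, adjusted p = 1.75e-09). Both inhibitor values remained past the threshold in each of the 16 alternative fits of their comparison, at log2 fold changes from 0.98 to 1.36 and from 1.02 to 1.45. The direct comparison of PCI-34051 with KDAC8H143A gave a log2 fold change of 0.03 (95% interval -0.27 to 0.33), which did not pass the threshold but does not show equal levels. After correction for GC content and length that difference was 0.46 (edgeR adjusted p = 0.00235). Against KDAC6H611A, Tubastatin A gave a log2 fold change of 1.10 (standard error 0.12, edgeR adjusted p = 6.67e-05). HDAC4 in the KDAC6 lines stayed within 12.5 to 18.1 CPM, with log2 fold changes of -0.04 in each (95% intervals -0.34 to 0.27 and -0.34 to 0.26).

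HDAC5 and HDAC7, 2 further class IIa genes, rose in KDAC8H143A but not with PCI-34051. HDAC5 (chromosome 17, 44076746 to 44123702, minus strand) was at 29.1, 27.1, 29.6 and 29.3 CPM in WT cells and at 60.1, 52.6, 66.4 and 76.4 CPM in KDAC8H143A, with no overlap. Its log2 fold change was 1.20 (standard error 0.13, edgeR adjusted p = 9.07e-06). In the other groups HDAC5 ran from 21.5 to 35.9 CPM, with log2 fold changes against WT cells between -0.13 and 0.08 and none past the threshold. HDAC7 (chromosome 12, 47782722 to 47833132, minus strand) was at 65.7, 70.4, 66.0 and 69.0 CPM in WT cells and at 190, 144, 177 and 204 CPM in KDAC8H143A. The log2 fold change was 1.45 (standard error 0.12, edgeR adjusted p = 2.10e-06), a 2.73-fold increase, and all 4 libraries lay above every WT library. With Tubastatin A HDAC7 was at 55.2, 53.1 and 57.1 CPM, all below the WT range, and its log2 fold change was -0.41 (standard error 0.05, adjusted p = 2.69e-07). PCI-34051 gave 57.5, 65.8 and 59.1 CPM, which overlapped the WT range at 1 library, and a log2 fold change of -0.26 (standard error 0.06, edgeR adjusted p = 0.00102). Compared directly with KDAC8H143A, PCI-34051 gave log2 fold changes of -0.94 for HDAC5 (standard error 0.14, adjusted p = 1.52e-04), which came to -0.17 and was not called after the correction for GC content and length, and -1.52 for HDAC7 (standard error 0.14, edgeR adjusted p = 8.28e-06). HDAC5 shares 1826 exon bases with G6PC3 on the opposite strand. G6PC3 was not called in KDAC8H143A (log2 fold change -0.53, edgeR adjusted p = 0.0270), and its range there overlapped that of WT cells. Whether shared reads affected HDAC5 was not tested. HDAC7 shares 30 exon bases with SLC48A1 and 963 with the long noncoding ENSG00000268069, both on the opposite strand; the latter averaged 21.8 counts per library.

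HDAC9, the class IIa gene with a muscle-repressor isoform that lacks the catalytic domain, fell in KDAC6H611A. The gene spans chromosome 7 from 18086949 to 19002416 on the plus strand. WT libraries held 51.2, 54.2, 51.2 and 50.2 CPM, KDAC6H216A 52.0, 55.4, 55.9 and 51.9 CPM, and KDAC6H611A 25.0, 28.2, 28.6 and 24.4 CPM. The 4 KDAC6H611A libraries lay below all other 18 libraries of the series, and neighbouring groups above them overlapped in sequence. The log2 fold change was -0.93 against WT cells (standard error 0.10, edgeR adjusted p = 2.68e-05), or 0.523 of the WT level. Set directly against KDAC6H216A it was -0.93 as well (standard error 0.10, edgeR adjusted p = 2.16e-04), so the lines edited in the first and in the second catalytic domain differed in HDAC9 by the test of that difference. The design does not tell the edited domain apart from the single colony that gave KDAC6H611A. Tubastatin A libraries held 46.6, 49.3 and 43.6 CPM and PCI-34051 libraries 39.2, 45.2 and 39.2 CPM, all below the WT range. Log2 fold changes were -0.27 with Tubastatin A (standard error 0.06, adjusted p = 4.08e-04) and -0.43 with PCI-34051 (standard error 0.06, edgeR adjusted p = 1.62e-05). Tubastatin A stood 0.70 above KDAC6H611A on the log2 scale (standard error 0.10, edgeR adjusted p = 3.04e-04). In KDAC8H143A HDAC9 ran from 39.6 to 51.4 CPM and was not past the threshold (log2 fold change -0.09, 95% interval -0.32 to 0.13).

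The lower HDAC7 and HDAC9 calls with the inhibitors depended on the scaling and, for a pair of them, on the filter. When libraries were scaled to their total count only, the median of all genes tested moved from 0.00 to 0.35 with Tubastatin A and from -0.01 to 0.38 with PCI-34051 on the log2 scale, and the calls over all genes became 7910 higher and 1846 lower in place of 4461 and 4360 for Tubastatin A, and 7893 and 1477 in place of 3911 and 3924 for PCI-34051. HDAC7 was then at log2 fold changes of -0.06 and 0.13 and HDAC9 at 0.09 and -0.04, none past the threshold. All 4 values lay below the shifted median of all genes. A fit of all 6 groups together, with 2997 higher and 1610 lower calls for Tubastatin A and 2700 and 1641 for PCI-34051, also left HDAC7 and HDAC9 short of the threshold, at log2 fold changes from -0.33 to -0.15. Without a filter on low counts HDAC9 with Tubastatin A (-0.17, edgeR adjusted p = 0.0165) and HDAC7 with PCI-34051 (-0.17, adjusted p = 0.0319) were not called. The calls were kept in the other settings, among them DESeq2, removal of mitochondrial genes, the replicate block and the GC content and length correction. They also held in each of the 7 fits that left out 1 library. WT totals include the mitochondrial ribosomal RNA that the inhibitor libraries nearly lack, and its part in the total-count shift was not tested.

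Among the class IIb genes, HDAC6 (chromosome X, 48801377 to 48824982, plus strand) was lower in KDAC6H216A, the line whose edit lies in its own exon 9. It was at 9.71, 17.0, 16.3 and 13.9 CPM in WT cells. KDAC6H216A held 6.25, 5.85, 5.88 and 7.45 CPM, and KDAC6H611A, edited in exon 20 of the same gene, 13.8, 12.4, 10.5 and 15.9 CPM. All 4 KDAC6H216A libraries lay below every other library of the series, and KDAC6H611A overlapped WT cells. The log2 fold change in KDAC6H216A was -1.25 (standard error 0.18, edgeR adjusted p = 0.00540), or 0.420 of the WT level. Leaving out 1 library at a time kept it between -1.37 and -1.16, but it passed the threshold in 2 of 8 such fits, without WT replicate 1 and without KDAC6H216A replicate 1 (log2 fold change -1.32, adjusted p = 3.39e-06), the library with little mitochondrial ribosomal RNA. In the other 6 fits the adjusted p reached at most 0.0316. Over all genes, 31 were called higher and 90 lower in KDAC6H216A, against 1786 and 2027 without that replicate, 358 and 85 under total-count scaling, and 150 and 217 with DESeq2. The direct comparison of KDAC6H611A with KDAC6H216A gave a log2 fold change of 1.13 (standard error 0.18, edgeR adjusted p = 0.00187). It lost the call without KDAC6H216A replicate 2 (1.07, adjusted p = 0.0104) and under total-count scaling (1.02, adjusted p = 0.0249). In that comparison 2 of the 7 genes were called, HDAC6 higher and HDAC9 lower, against 4.61% of all genes higher and 5.31% lower.

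In the remaining groups HDAC6 did not pass the threshold. KDAC8H143A libraries ran from 13.2 to 17.4 CPM, with a log2 fold change of 0.17 (95% interval -0.20 to 0.53). Tubastatin A held 18.5, 19.1 and 19.1 CPM and PCI-34051 18.8, 17.9 and 18.2 CPM, in both cases above the WT range. Their log2 fold changes were 0.26 (95% interval 0.04 to 0.48, adjusted p = 0.0328) and 0.23 (95% interval -0.01 to 0.47, edgeR adjusted p = 0.0846). Without a filter on low counts both were called, at 0.35 and 0.32, and under total-count scaling they were 0.61 and 0.62, above the shifted median of all genes.

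HDAC10 (chromosome 22, 50245183 to 50251405, minus strand) showed the largest fold change of the 7 genes against WT cells, in KDAC8H143A, though not after the correction for GC content and length. WT libraries held 23.5, 24.9, 22.3 and 23.0 CPM and KDAC8H143A libraries 124, 61.0, 93.3 and 178 CPM. The groups did not overlap, but the KDAC8H143A libraries spread over a wider range than those of any other group. The log2 fold change was 2.34 (standard error 0.27, edgeR adjusted p = 1.92e-05), a 5.05-fold increase. Against KDAC8H143A, PCI-34051 gave a log2 fold change of -1.98 (standard error 0.30, edgeR adjusted p = 1.88e-04). HDAC10 was at 27.5, 47.1, 20.7 and 36.4 CPM in KDAC6H611A, which straddled the WT range, with a log2 fold change of 0.51 (95% interval 0.04 to 0.99, adjusted p = 0.118). Without KDAC6H611A replicate 3 this became 0.70 and was called (edgeR adjusted p = 0.00885). KDAC6H216A held 31.9, 19.3, 19.0 and 16.5 CPM, where replicate 1 lay above and the other 3 libraries below the WT range. The log2 fold change there was -0.19 (adjusted p = 0.746), and -0.50 without replicate 1 (edgeR adjusted p = 3.53e-04). Tubastatin A gave 23.6, 22.7 and 23.3 CPM and PCI-34051 28.0, 26.8 and 29.4 CPM, with log2 fold changes of -0.13 and 0.16 that did not pass the threshold. The Tubastatin A value was called lower after the correction for GC content and length (-0.30, edgeR adjusted p = 0.00155) and higher under total-count scaling (0.23, adjusted p = 0.00812), so its direction depended on the setting.

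HDAC10 shares 2763 exon bases with MAPK12, the gene of the p38γ kinase, on the same strand, so the split of reads between them was estimated by the counting program and HDAC10 is uncertain to that extent. MAPK12 held 65.7 to 75.9 CPM in WT cells and 125 to 366 CPM in KDAC8H143A, a log2 fold change of 1.79 (standard error 0.26, edgeR adjusted p = 7.45e-05). HDAC10 was 0.327 ± 0.0259 of MAPK12 in WT cells (SD, n = 4) and 0.474 ± 0.0226 in KDAC8H143A. Tubastatin A gave a ratio of 0.485 ± 0.0251 and PCI-34051 gave 0.523 ± 0.0615 (n = 3 for each inhibitor). The KDAC6 lines lay near WT cells, at 0.328 ± 0.0265 for KDAC6H216A and 0.324 ± 0.0612 for KDAC6H611A (n = 4 for each line). With the counts of both genes summed as 1 gene, a setting chosen after seeing the data, KDAC8H143A stayed higher (log2 fold change 1.95, adjusted p = 4.33e-05), whereas Tubastatin A and PCI-34051 fell by 0.54 and 0.32 on the log2 scale (edgeR adjusted p = 5.24e-09 and 2.57e-05). MAPK12 alone was lower with both inhibitors, at log2 fold changes of -0.70 and -0.52.

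**Figure D4:**
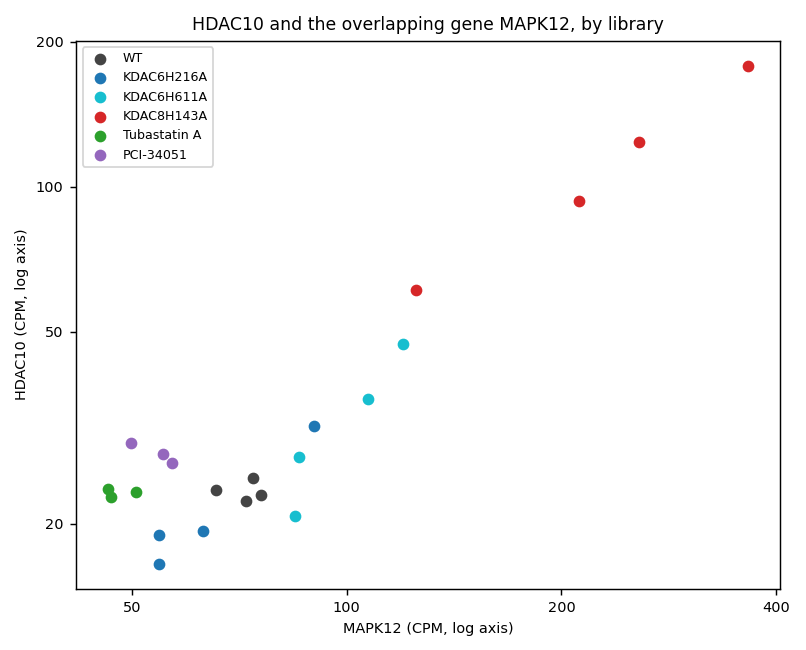
CPM of HDAC10 (vertical log axis) against CPM of the overlapping gene MAPK12 (horizontal log axis) in the 22 libraries, coloured by group. The KDAC8H143A libraries lie highest for both genes. Both inhibitor groups hold less MAPK12 than WT cells. For HDAC10 the Tubastatin A libraries lie within the WT range and the PCI-34051 libraries slightly above it.

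HDAC11 (chromosome 3, 13479724 to 13506424, plus strand), the class IV gene, was lower in KDAC8H143A. It was at 1.86, 4.36, 3.91 and 3.90 CPM in WT cells and at 1.25, 1.74, 1.92 and 1.39 CPM in KDAC8H143A, with 15 to 36 counts per library there. The ranges overlapped through WT replicate 1. The log2 fold change was -1.12 (standard error 0.29, edgeR adjusted p = 0.00460), and PCI-34051 stood 1.10 above KDAC8H143A on the log2 scale (standard error 0.25, edgeR adjusted p = 0.00265), a call that was lost without PCI-34051 replicate 1 (1.02, adjusted p = 0.0155) or replicate 2 (1.06, adjusted p = 0.0130). Leaving out 1 library at a time, the KDAC8H143A value kept its direction, between -1.31 and -1.02, and its call in 4 of 8 fits. The calls were lost without WT replicates 2, 3 or 4 or KDAC8H143A replicate 1 (adjusted p from 0.0158 to 0.0208). KDAC6H216A held 0.874, 2.36, 2.51 and 2.32 CPM (log2 fold change -0.90, 95% interval -1.64 to -0.16, edgeR adjusted p = 0.260). KDAC6H611A held 4.48, 3.69, 4.98 and 4.77 CPM, and the difference between these lines was 1.24 on the log2 scale (95% interval 0.59 to 1.89) at an adjusted p of 0.0146, short of the threshold, but passed without KDAC6H216A replicate 1 (1.02, edgeR adjusted p = 0.00673). At this depth a change in HDAC11 with the inhibitors was not detectable, with log2 fold changes of -0.22 in each (95% intervals -0.69 to 0.25 and -0.70 to 0.25).

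In KDAC8H143A the log2 fold change of a gene moved with the GC content of its transcript. Over 5 bins of equal size into which all genes tested were divided by GC content, the median log2 fold change ran from -0.76 at a median GC content of 38.3% to 1.05 at 61.3%. The 4 genes called higher have transcripts of 55.1% (HDAC4), 57.7% (HDAC7), 61.2% (HDAC5) and 67.2% GC (HDAC10), the last at the 98.6th percentile of protein-coding genes, and HDAC9 has 40.4%. After correction of each library for GC content and length, HDAC4 stood at 0.56 (standard error 0.11, adjusted p = 8.93e-04), HDAC7 at 0.64 (standard error 0.08, adjusted p = 1.83e-05) and HDAC10 at 0.67 (standard error 0.13, edgeR adjusted p = 8.82e-04). HDAC5 no longer passed, at 0.18 (standard error 0.09, adjusted p = 0.101). HDAC11, at 60.6% GC, went further down to -2.00 (standard error 0.30, edgeR adjusted p = 1.02e-04). HDAC6 and HDAC9 stayed short of the threshold at -0.48 and 0.35. Under total-count scaling the median of all genes was at 0.36, 6481 genes were called higher and 2494 lower in place of 5093 and 4326, and HDAC11 was not called (-0.82, edgeR adjusted p = 0.0309). The part of GC content in the measured differences was not tested beyond this correction.

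**Figure D5:**
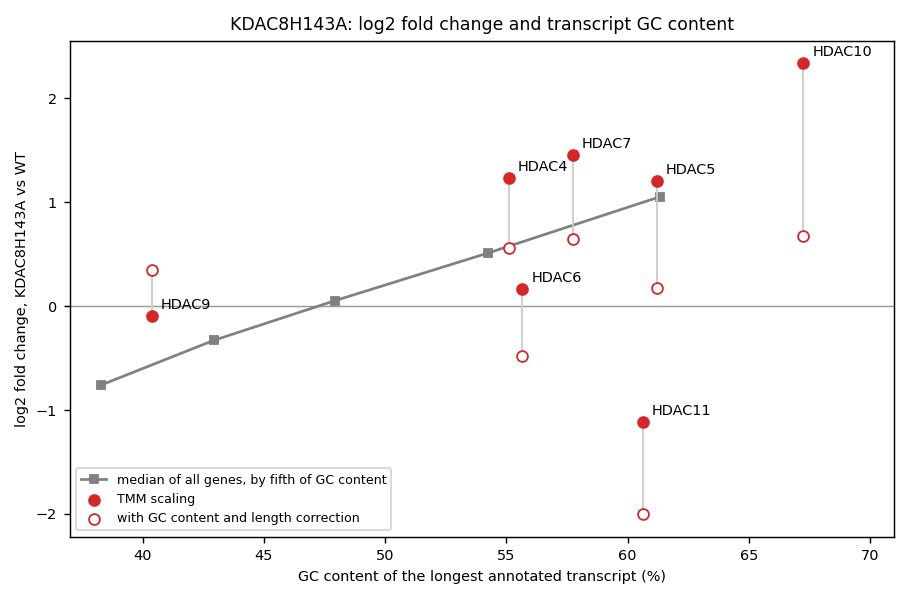
Log2 fold change in KDAC8H143A against WT cells (vertical axis) and GC content of the longest annotated transcript in percent (horizontal axis) for the 7 genes, with TMM scaling (filled) and with correction for GC content and length (open); grey squares give the median of all genes in each of 5 bins of GC content. HDAC10 drops from 2.34 to 0.67 with the correction, and HDAC11 stays below 0 with either.

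The sequences upstream of the furthest 5′ RefSeq starts of HDAC4, HDAC7, HDAC10 and HDAC11 are GC-rich as well. So is that of HDAC9, which was not called in KDAC8H143A. Windows of 250 bases upstream of the start that RefSeq annotates furthest 5′ (GRCh38.p14; 6 of the 7 genes matched an entry) were read for the genes that moved past the threshold in KDAC8H143A both with and without the correction. Of each window, the longest stretch that no GENCODE exon of the gene covers is shown on the strand of the gene, with GC boxes in capitals. By the GENCODE spans given above, the HDAC7 and HDAC11 stretches lie inside the gene, downstream of its GENCODE 5′ end. Those of HDAC4 and HDAC10 lie outside it. A GC box is the motif GGGCGG, the usual site of SP family factors, searched on both strands (CCGCCC on the other), with overlapping matches counted.
HDAC4, chr2:239401655-239401899, minus strand: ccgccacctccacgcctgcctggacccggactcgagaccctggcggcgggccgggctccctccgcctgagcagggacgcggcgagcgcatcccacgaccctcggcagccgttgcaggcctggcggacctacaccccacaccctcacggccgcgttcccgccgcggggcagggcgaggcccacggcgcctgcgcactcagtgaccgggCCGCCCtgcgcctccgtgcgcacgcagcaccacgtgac
HDAC7, chr12:47819981-47820153, minus strand: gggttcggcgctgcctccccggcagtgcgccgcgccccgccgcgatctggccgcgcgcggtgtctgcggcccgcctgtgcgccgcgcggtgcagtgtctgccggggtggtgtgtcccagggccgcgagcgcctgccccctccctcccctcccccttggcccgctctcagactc
HDAC10, chr22:50251406-50251515, minus strand: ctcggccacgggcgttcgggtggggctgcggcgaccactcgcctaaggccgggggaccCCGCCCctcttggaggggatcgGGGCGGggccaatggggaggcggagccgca
HDAC11, chr3:13480117-13480214, plus strand: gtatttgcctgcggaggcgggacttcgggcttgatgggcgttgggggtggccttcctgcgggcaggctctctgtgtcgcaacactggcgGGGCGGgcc

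Over the whole windows the GC content was 76.8% for HDAC4, 75.6% for HDAC7, 78.0% for HDAC10 and 73.6% for HDAC11, where the median of 35116 windows of the same length was 58.0%. GC boxes numbered 1, 0, 4 and 5 in the same order, and 42.6% of all windows held at least 1. The stretches shown held 1, 0, 2 and 1, so the order of HDAC10 and HDAC11 depended on whether exon bases were included. The furthest 5′ window of HDAC9 held 2. A link between GC boxes and the fold changes was not tested. A match is a run of letters and not a measured binding site.

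Beside the counts of calls, ranges of libraries were compared without a test. In KDAC6H216A and KDAC6H611A, 1 of the 7 genes did not overlap WT cells (HDAC6 and HDAC9), where 8.56% and 25.4% of all genes did not. In KDAC8H143A 4 of 7 did not overlap, against 64.8% of all genes. With Tubastatin A 4 of 7 did not overlap, against 63.9%, and with PCI-34051 5 of 7 did not, against 59.1%. For the direct comparisons, Tubastatin A against KDAC6H611A called 2 of the 7 genes higher, HDAC4 and HDAC9, where 17.7% of all genes were called higher and 17.2% lower (2945 and 2852 genes, or 3232 and 1283 under total-count scaling). In that comparison HDAC7 was called as well without KDAC6H611A replicate 2 (log2 fold change -0.33) and HDAC10 without KDAC6H611A replicate 3 (-0.75). PCI-34051 against KDAC8H143A called HDAC5, HDAC7 and HDAC10 lower and HDAC11 higher, where 27.8% of all genes were called lower and 30.3% higher. After the correction for GC content and length HDAC5 was not called, HDAC4 (0.46) and HDAC6 (0.72) were called higher and HDAC9 (-0.94) lower, and HDAC10 came to -0.72.

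The genes around the class IIa proteins were described from lists. The counts below stand beside the shares of all genes tested that were called higher and lower against WT cells, which were 31.6% and 26.9% in KDAC8H143A, 29.3% and 28.6% with Tubastatin A, and 25.5% and 25.6% with PCI-34051. Of 15 kinases tested that phosphorylate or control class IIa proteins, 7 were higher and 4 lower in KDAC8H143A, 10 higher and 1 lower with Tubastatin A and 7 higher and 1 lower with PCI-34051. Under total-count scaling 8 were higher and 1 lower in KDAC8H143A, and 12 were higher with each inhibitor. After the correction for GC content and length the counts were 4 higher and 2 lower in KDAC8H143A, 6 and 1 with Tubastatin A, and 4 and 2 with PCI-34051. PRKD2, a protein kinase D, rose in these 3 groups at log2 fold changes of 1.27, 0.72 and 0.84, of which the first came to 0.28 and lost its call after that correction. SIK1, a salt-inducible kinase, rose in KDAC8H143A at 1.26, or 0.54 after the correction. In KDAC6H611A 2 of the 15 kinases were higher and 2 lower, among them SIK1 at -1.03, CAMK1 at 0.87 and PRKAA1 at -0.42, and none of these 3 passed under total-count scaling.

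The 14-3-3 genes, whose products bind phosphorylated class IIa proteins, fell in KDAC8H143A in 4 of 6 cases tested, with YWHAZ at a log2 fold change of -1.36 and YWHAQ at -0.94. With Tubastatin A 6 of 6 rose and with PCI-34051 5 of 6, where YWHAE was at 0.82 and 0.77. In the fit of all 6 groups 3 of 7 tested were called with Tubastatin A and 2 of 7 with PCI-34051, and under total-count scaling 2 of 6 were called lower in KDAC8H143A. The median log2 fold change of the 14-3-3 list was -0.64 in KDAC8H143A, where that of all genes was 0.08, and 0.49 and 0.41 with the inhibitors, where that of all genes was 0.00 and -0.01. Under total-count scaling the list median was -0.35 in KDAC8H143A, beside 0.36 for all genes.

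Partners of class IIa proteins were mixed. Of 12 tested, 5 were higher and 2 lower in KDAC8H143A, among them GPS2, a subunit of a corepressor complex, at a log2 fold change of 1.31. With Tubastatin A 4 were higher and 2 lower, and the repressor gene BCL6 was at 0.68. MEF2C, a MEF2 factor, was called at 0.66 but lost the call with DESeq2 (adjusted p = 0.0113), in the fit of all 6 groups and after the correction. With PCI-34051 2 were higher and 1 lower, the last being MEF2D at -0.27, which turned to 0.11 under total-count scaling. That scaling called 8 partners higher in KDAC8H143A and 11 with each inhibitor, where the median of all genes also lay higher, while the correction for GC content and length gave 2 higher and 1 lower in KDAC8H143A, 4 and 4 with Tubastatin A, and 3 and 3 with PCI-34051.

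Of 8 genes taken as MEF2 targets that were tested in each comparison with WT cells, 5 were higher in KDAC8H143A and the other 3 did not pass the threshold. Among these comparisons ARC passed the filter on low counts in that of KDAC8H143A alone, and it is left out of the count. With Tubastatin A 4 were higher and 1 lower, and with PCI-34051 4 were higher and 2 lower. The nuclear receptor gene NR4A1 was at log2 fold changes of 2.01 in KDAC8H143A (1.08 after the correction for GC content and length), while Tubastatin A gave 1.72 and PCI-34051 gave 1.62. KLF2, a Krüppel-like factor gene, was at 1.68 in KDAC8H143A (0.69 after the correction) and at 1.31 with Tubastatin A. In KDAC6H611A, KLF4 (1.43) and the neurotrophin gene BDNF (1.01) were higher and KLF2 (-0.81) was lower. These genes also respond to many other factors, so the list does not isolate MEF2.

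The lists around the class IIb proteins were tested in the same way. Of 19 KDAC6 substrates and partners, 4 were higher and 8 lower in KDAC8H143A, while Tubastatin A gave 4 and 8 and PCI-34051 gave 3 and 9. Under total-count scaling these became 5 and 4, 12 and 3, and 11 and 3, so lower calls no longer outnumbered higher ones. That scaling also moved the calls over all genes, to 6481 higher and 2494 lower in KDAC8H143A. With Tubastatin A they were 7910 and 1846, and with PCI-34051 7893 and 1477. The correction for GC content and length gave 2 higher and 13 lower in KDAC8H143A. In KDAC6H611A 2 were lower, the dynein chain gene DYNC1I2 at -0.67 and the tubulin gene TUBA4A at -0.54, and neither passed under total-count scaling. The tubulin acetyltransferase gene ATAT1 rose in KDAC8H143A (log2 fold change 1.25) while TUBA1A fell (-1.29), and the aggregate receptor gene SQSTM1 rose with PCI-34051 (1.07).

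Polyamine metabolism, in which KDAC10 acts, had 2 genes higher and 8 lower of 13 tested in KDAC8H143A, where 31.6% of all genes were called higher and 26.9% lower. Under total-count scaling 3 were higher and 5 lower. ODC1, which makes putrescine, fell there at a log2 fold change of -1.16. The inhibitors gave -0.94 (Tubastatin A) and -0.95 (PCI-34051) for ODC1, and KDAC6H611A gave -0.64, a call that was lost under total-count scaling (adjusted p = 0.143 by edgeR). AMD1, which supplies the aminopropyl donor of spermidine synthesis, was at -1.72 in KDAC8H143A. After the correction for GC content and length AMD1 was at -1.11 and ODC1 at -1.18 there, both still called. ATP13A2, called higher in KDAC8H143A at 1.05, came to -0.06 and lost its call. The polyamine transporter gene ATP13A3 rose with both inhibitors (0.76 and 0.82).

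In KDAC6H216A, neither edgeR nor DESeq2 called a gene of these 6 lists. At an unadjusted p below 0.05, edgeR had 3 of 15 kinases, 3 of 12 partners, 2 of 8 MEF2 targets, 1 of 19 KDAC6 substrates and partners, 1 of 12 polyamine genes and 0 of 6 14-3-3 genes. Under total-count scaling 1 partner was called higher. The lists were not fitted without KDAC6H216A replicate 1. Leaving that library out raised the calls over all genes from 31 higher and 90 lower to 1786 and 2027. The absence of calls in the lists therefore does not show that their genes were unchanged.

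The other deacetylase families, given for comparison, had 4 class I genes and 6 sirtuins tested. HDAC2 was the 1 class I gene called in KDAC8H143A, at a log2 fold change of -1.44, or -0.78 after the GC content and length correction. It was also the 1 called in KDAC6H611A, at -0.54, where the call was lost after that correction. With the inhibitors HDAC1 and HDAC2 were at log2 fold changes from 0.17 to 0.29, calls that were lost when all 6 groups were fitted together. After the correction HDAC2 was also no longer called, at 0.07 with Tubastatin A and 0.0028 with PCI-34051. In KDAC8H143A 3 sirtuins were higher and 1 lower, where SIRT6 turned from 0.93 to -0.21 with the correction and SIRT7 went from 1.17 to 0.50 and lost its call, which left 1 higher and 1 lower. The median log2 fold change in KDAC8H143A was 1.20 for the 7 class II and IV genes, -0.06 for class I and 0.53 for the sirtuins, beside 0.08 for all genes. After the correction these family medians were 0.35, -0.07 and 0.10.

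Over the 6 groups, the 2 genes whose pattern of mean log2 CPM lay nearest to each of the 7 were sought among 14165 genes, by the root mean square difference after centring each gene on its own mean. For HDAC4 these were JARID2 and TRAF1, at differences of 0.09 and 0.10 on the log2 scale. HDAC5 was nearest to BCS1L (0.02) and ANKRD16 (0.04), and HDAC7 to GAK and the pseudogene PKD1P6 (0.05 each). The nearest to HDAC9 were the histone genes HIST1H2AG (0.05) and HIST1H4B (0.07). HDAC6 had the least close neighbours, a long noncoding RNA gene of chromosome 20 (0.11) and the zinc finger gene ZNF141 (0.13). HDAC10 was nearest to SPPL2B and CTD-2047H16.4 (0.08 each), and HDAC11 to the pseudogene TAS2R18 (0.07) and RP11-31F15.2 (0.11). With 6 groups and this many genes a close match is common, and the values are a description.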

How the data were processed

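Gene counts were obtained from 22 RNA-seq libraries of HT1080 cells. The authors trimmed reads with Trimmomatic 0.39, aligned them to GRCh38 with Bowtie2 2.4.5 and deposited RSEM 1.3.3 expected counts per gene, which need not be whole because reads shared between genes are divided by estimate. The strand setting is not given in the sources used here. Expected counts were rounded and tested with edgeR 4.0.16 (R 4.3.3): TMM scaling, filterByExpr by group (minimum of 10 counts), quasi-likelihood test, and Benjamini-Hochberg adjustment over all genes tested, with a threshold of 0.01. Each of 8 comparisons was fitted on its own 2 groups. Fold changes therefore use TMM factors of 2 groups, whereas the CPM printed use factors over all 22 libraries. Prior counts of 1 were added for log2 CPM, and 95% intervals come from the fit. Replicates are biological per the study's methods, and libraries of a group differed by more than sampling noise. Scripts were tested on simulated data.

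The 7 genes, the lists and the tests were chosen with earlier results of these data known. Named genes are the 7, up to 3 called genes of each list and comparison with WT cells of largest absolute log2 fold change, genes overlapping the 7, and the 2 nearest patterns. G6PC3, SLC48A1 and MAPK12 overlap members. Gene spans, exon lengths and GC content (longest transcript) come from GENCODE release 44. Alternatives were DESeq2 1.42.0, total-count scaling, removal of mitochondrial genes, other filters, a threshold of 0.05, all 6 groups in 1 fit, a GC content and length correction, a replicate block, and each library left out.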

Additional observations from a re-analysis of the deposited data

Results flagged for a closer look

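Of 28 sets of 4 libraries tested for a value far from the rest (7 genes in 4 groups), 2 were singled out, where chance gives about 1 in 20. HDAC11 in KDAC6H216A replicate 1 was at 0.874 CPM, below the other 3 libraries of that line at 2.32 to 2.51 CPM. HDAC4 in KDAC6H611A replicate 3 was at 12.5 CPM, below the other 3 libraries at 15.7 to 16.3 CPM. The cause of either value was not tested.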

How the results depend on the processing

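Counts of the 7 genes called changed moved as follows. In KDAC6H216A against WT cells edgeR called 1 gene, and leaving out 1 library at a time gave 0 to 2, with 2 (HDAC6 and HDAC10) without KDAC6H216A replicate 1. In KDAC6H611A against WT cells such fits gave 1 to 2, with 2 without KDAC6H611A replicate 3, and in KDAC6H611A against KDAC6H216A 1 to 3 in place of 2. The fit of all 6 groups left 1 call in place of 3 with Tubastatin A and 1 in place of 3 with PCI-34051 against WT cells. Total-count scaling left 1 of 2 calls between the KDAC6 lines. A threshold of 0.05 gave 4 calls for Tubastatin A against KDAC6H611A, by its construction. The cause of the other shifts was not tested. Of the counts under settings other than leaving out a library, 73 stayed within 1.5 times and 7 did not.

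Under total-count scaling, log2 fold changes that had been negative and passed the threshold with at least 1 scaling became positive for HDAC5 (0.31), HDAC9 (0.085) and HDAC10 (0.23) with Tubastatin A and for HDAC7 (0.13) with PCI-34051, together with the median of all genes. Values that passed with neither scaling also turned, such as HDAC9 in KDAC8H143A (0.19) and HDAC11 with Tubastatin A (0.13) and PCI-34051 (0.16). HDAC10 with PCI-34051 became negative (-0.32) when its counts were summed with those of MAPK12, a setting chosen after seeing the data. With the longest transcript as the length, WT levels became 1.76 (HDAC4), 5.41 (HDAC5), 10.6 (HDAC7), 5.11 (HDAC9), 2.45 (HDAC6), 8.99 (HDAC10) and 1.22 CPM per kb (HDAC11), which follows from the shorter length. Over all settings other than leaving out a library, 513 fold changes of single genes kept their side of the threshold, with changes of sign only among values that passed in neither setting. In the same settings 26 gained and 18 lost a call, and 5 that passed in at least 1 setting changed sign.

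Samples with the same replicate number were not treated as pairs in the main fits. In no comparison did every pair's deviations correlate above 0.1, and the correlations ran from -0.31 to 0.49. This check cannot exclude that some pairs were shared. For KDAC6H216A against WT cells the correlations were 0.31, 0.099, 0.24 and 0.030 in replicates 1 to 4. With the replicate number as a block, HDAC6 in KDAC6H216A was at -1.25 (edgeR adjusted p = 0.0192), which left 0 calls there, with 2 of the 7 genes at an unadjusted p below 0.05 in the fit without the block and 1 called by DESeq2. HDAC11 in PCI-34051 against KDAC8H143A was at 1.05 (adjusted p = 0.0104). With the block and the GC content and length correction together the counts were 0 in KDAC6H216A and 1 for Tubastatin A against KDAC6H611A, where HDAC9 was at 0.42 (adjusted p = 0.0223). The block changed no other call among the 7 genes. HDAC11 and HDAC6 rest on the fewest counts, so small changes in them were not detectable.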
